A study of Saccharomyces cerevisiae W303 with 30 samples.

Results

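Nascent transcription of 10 genes of the phosphate starvation response of Saccharomyces cerevisiae was measured in strains lacking, or rapidly depleted of, subunits of the Mediator tail. The 10 genes, of 6692 in the files, were PHO84 (YML123C), PHO89 (YBR296C), PHO5 (YBR093C), PHO8 (YDR481C), PHO81 (YGR233C), SPL2 (YHR136C), VTC1 (YER072W), VTC3 (YPL019C), VTC4 (YJL012C) and PHM6 (YDR281C), all known targets of the transcription factor Pho4. They were chosen by name, with their sense levels in all of these libraries already known, above all the difference between the med16 deletion and the wild type, which is therefore given below as a description with no p-value. In the other sense comparisons the adjusted p of a gene sets its difference against the spread between libraries within groups. Since these sense levels were known too, such p-values are descriptions and not independent tests. The counts of members called are descriptions as well, from which nothing is read about the choice. The antisense reads were not used to choose members. No threshold on a value was used. All 10 passed the filter on low counts for the sense strand. There were 10 groups of 3 libraries each, 30 in all, from newly made RNA labelled for 6 min with 4-thiouracil (4tU) in W303 cells growing in YPD at 30 °C. The wild type (WT) and med16Δ strains were untreated; med16Δ has LEU2 in place of the gene and, unlike the wild type, also carries lys2. The other 4 strains carried an auxin-inducible degron (AID), a tag that sends a protein for destruction once the auxin 3-IAA is added, and expressed the plant receptor OsTIR1 from a GPD1 promoter at leu2: Med16-AID (Med16-3xV5-IAA7), Med15-AID (Med15-3xHA-IAA7), Med15/16-AID (both tags) and Mot1/Med16-AID (Med16-3xV5-IAA7 with Mot1-3xHA-IAA7). Each degron strain received 0.5 mM 3-IAA or the solvent DMSO for 30 min. Neither the wild type nor med16Δ carried OsTIR1 or received DMSO.

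In phosphate-rich medium the cyclin and kinase pair Pho80 and Pho85 phosphorylates Pho4 and keeps it out of the nucleus. When phosphate runs short, Pho81 inhibits the kinase, and Pho4, together with Pho2, activates genes for phosphate uptake, scavenging and storage. The cultures grew in YPD, which is rich in phosphate; phosphate itself was not measured here. Mediator passes signals from activators to RNA polymerase II; Med15 and Med16 belong to its tail, the part that activators contact, and Mot1 is an ATPase that removes the TATA-binding protein from DNA.

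The sequences upstream of the members were examined first, since Pho4 binds CACGTG and, more weakly, CACGTT. In the 600 bases before the start codon (R64 genome, both strands, so that AACGTG also counts as the weaker site) the stronger site CACGTG was found in 10 of 10 members and in 7.2% of the windows of 5999 genes. CACGTT was found in 7 of 10 members, against 18.8% of all windows, and 9 of 10 members had 2 or more matches to either, against 3.6%. TATAAA was found in 9 of 10 members and in 65.2% of all windows; VTC1 was the member without it. SPL2 had 4 CACGTG matches, PHO84 had 2 CACGTG and 2 CACGTT matches, and VTC1 had a single CACGTG. The windows of PHO84, PHO8 and VTC1 reached into the neighbouring gene. That gene begins 237 bases from PHO84 and 180 from PHO8. All CACGTG and CACGTT matches of these 2 members lie farther out, the nearest at 262 and 380 bases before the start codon. The whole PHO84 stretch printed below lies beyond that edge too, whereas the VTC1 match, at 157 bases, lies before its neighbour. The stretches below are those of 6 of the members, 150 bases each, written 5′ to 3′ on the strand of the gene, with matches to CACGTG or CACGTT in capitals. They do not reach the start codon, and they hold 1 of the 4 matches of SPL2 and 2 of the 4 of PHO84. All 6 lie on the minus strand, at chrXIII:26148-26297 for PHO84, chrII:798838-798987 for PHO89, chrII:431182-431331 for PHO5, chrVIII:375384-375533 for SPL2, chrXVI:517252-517401 for VTC3 and chrX:413500-413649 for VTC4 (R64; these are S288C letters, and W303 may differ).
PHO84: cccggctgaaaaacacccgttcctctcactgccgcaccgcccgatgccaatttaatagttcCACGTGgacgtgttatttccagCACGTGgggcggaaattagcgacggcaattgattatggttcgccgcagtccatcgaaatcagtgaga
PHO89: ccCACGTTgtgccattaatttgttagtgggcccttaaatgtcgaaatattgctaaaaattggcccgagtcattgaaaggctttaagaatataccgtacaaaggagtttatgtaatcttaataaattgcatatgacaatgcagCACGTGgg
PHO5: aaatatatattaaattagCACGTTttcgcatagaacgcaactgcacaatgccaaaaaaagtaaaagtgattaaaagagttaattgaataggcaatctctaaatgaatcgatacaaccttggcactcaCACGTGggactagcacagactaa
SPL2: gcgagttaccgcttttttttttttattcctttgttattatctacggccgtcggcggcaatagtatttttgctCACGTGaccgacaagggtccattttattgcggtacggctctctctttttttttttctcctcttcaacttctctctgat
VTC3: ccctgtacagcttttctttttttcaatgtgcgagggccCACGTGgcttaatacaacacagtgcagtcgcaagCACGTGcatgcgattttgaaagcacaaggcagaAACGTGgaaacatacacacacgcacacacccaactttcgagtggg
VTC4: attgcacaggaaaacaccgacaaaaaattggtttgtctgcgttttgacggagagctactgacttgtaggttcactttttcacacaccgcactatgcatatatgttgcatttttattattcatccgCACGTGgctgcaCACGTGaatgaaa
The matches are letters in a window and say nothing of whether a factor was bound there. CACGTG pairs lie close together in PHO84, VTC3 and VTC4, whereas the PHO89 and PHO5 stretches each hold a CACGTT and a CACGTG farther apart.

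Each library held 3838508 to 6912702 sense counts (median 4731420), and levels below are CPM, counts relative to the library's total after scaling by the trimmed mean of M-values (TMM). Antisense reads were 5.26% to 6.21% of stranded reads in every library. The targeted gene followed its label where RNA can show it: MED16 averaged 3.01 CPM in med16Δ and 211 in the wild type, whereas a degron acts on the protein and its RNA checks nothing. The names of the deposited data divide the libraries into a set of 12 (WT, med16Δ and Med16-AID) and a set of 18 (the other 3 strains), so strain and set cannot be told apart between them, and every test below was made within a set except the comparisons of 3-IAA effects with Med16-AID. In bulk RNA, fewer cells transcribing a gene and less RNA per cell cannot be told apart.

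PHO84, the high-affinity proton-coupled phosphate transporter, had by far the widest range of the members. Its levels were 718, 781 and 724 CPM in the wild type, 918, 1251 and 952 in Med16-AID with DMSO, 182, 184 and 192 in Mot1/Med16-AID with DMSO, 35.2, 93.0 and 99.7 in Med15-AID with DMSO and 3.06, 0.611 and 1.31 in Med15/16-AID with DMSO. The highest group mean, 1040.4 CPM, was 626 times the lowest, 1.66 CPM, and neighbouring groups in the order of PHO84 levels overlapped in 2 of 9 cases. On log2(CPM + 0.5) its group means spanned 9.06, more than 99.9% of 5838 genes, whose median span was 0.81. SPL2, a small protein that holds back low-affinity phosphate uptake, spanned 5.95 on that scale, and PHO89, the sodium-coupled phosphate transporter, 5.67. PHM6, whose function is not established, spanned 2.85, and PHO5, the secreted acid phosphatase that frees phosphate outside the cell, 2.81. The VTC genes encode subunits of the complex that polymerises phosphate at the vacuole, with Vtc4 as the catalytic subunit; VTC3 spanned 2.20, VTC1 1.38 and VTC4 0.99. PHO81, the kinase inhibitor, spanned 1.32, and PHO8, the vacuolar alkaline phosphatase, 1.04, so the narrowest members were near the median of all genes. Per kilobase of coding sequence in the wild type, PHO84 was the highest member at 420.0 CPM, followed by VTC1 (345), VTC4 (155) and PHO8 (132); SPL2 (22.4) and PHO89 (9.92) were the lowest.

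**Figure D1:**
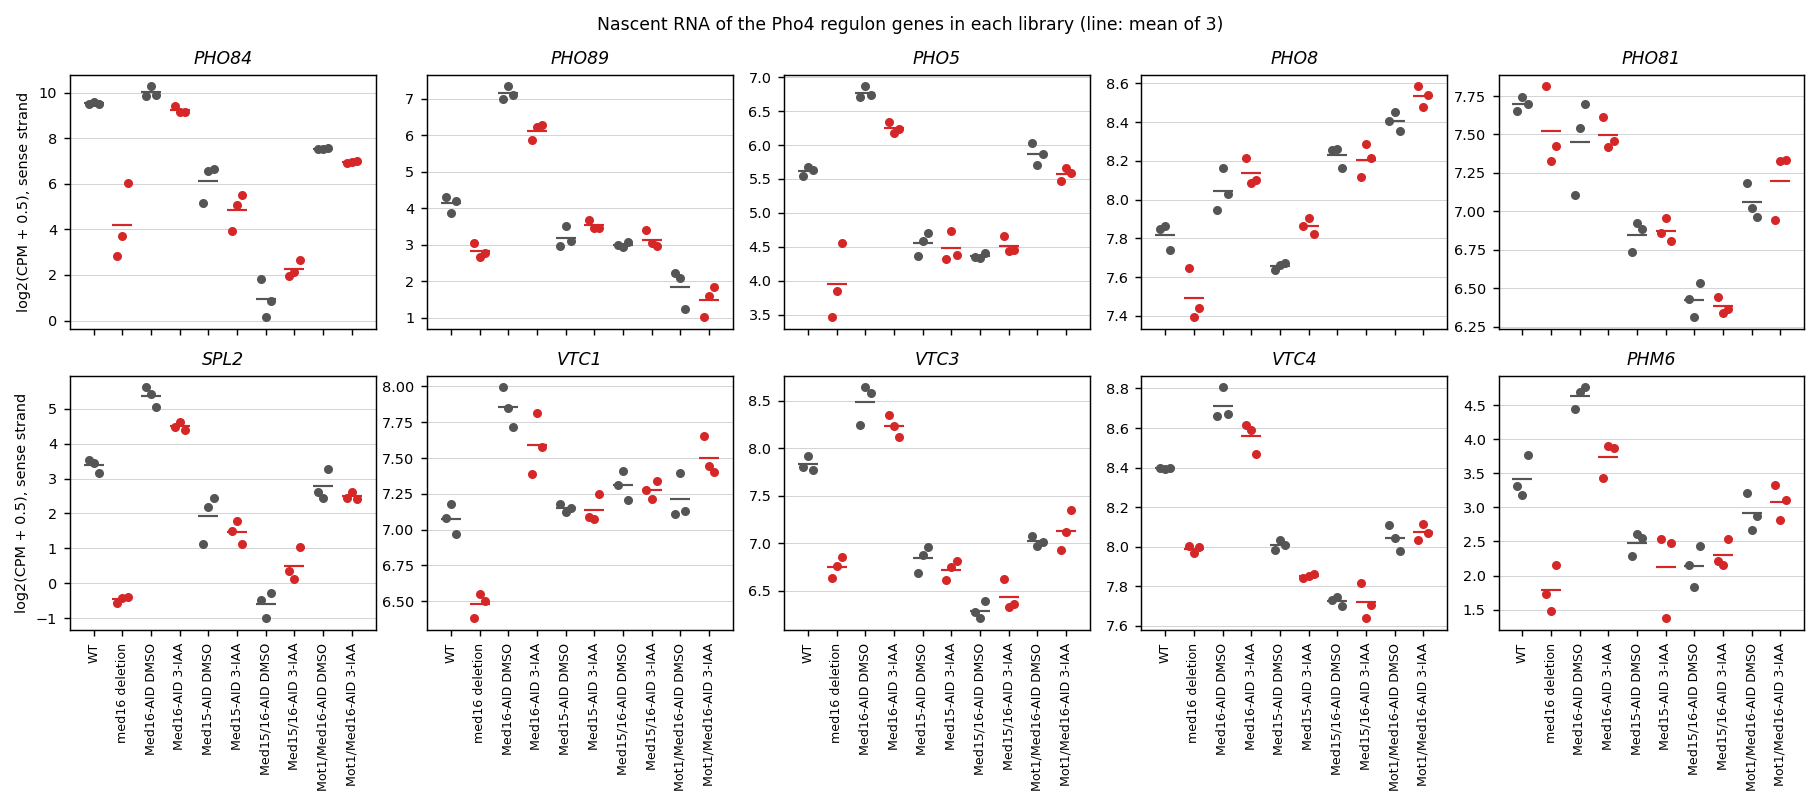
Levels of the 10 genes in each of the 30 libraries, as log2(CPM + 0.5); each point is a library, each line the mean of 3, with med16Δ and 3-IAA groups in red and the wild type and DMSO groups in grey. PHO84 ranged from a group mean of 1040.4 CPM in Med16-AID with DMSO to 1.66 CPM in Med15/16-AID with DMSO, whereas VTC4 and PHO8 spanned 0.99 and 1.04 on the log2 scale.

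The members shared part of this pattern. The highest group was Med16-AID with DMSO for 8 of the 10 genes; PHO81 was highest in the wild type and PHO8 in Mot1/Med16-AID with 3-IAA. Across the 10 group means of log2 CPM, VTC3 and VTC4 had a Pearson r of 0.99 with each other, and SPL2 (0.93), VTC3 (0.91) and VTC4 (0.91) were at ranks 3, 6 and 8 of 5838 genes in likeness to PHO84, which itself is rank 1. PHO5 (0.85), PHM6 (0.85) and PHO81 (0.81) followed, whereas PHO89 (0.52), VTC1 (0.41) and PHO8 (0.02) were less like it. Outside the pathway the most similar genes were VHS1 (0.97), TPO1 (0.93), SIA1 (0.91), THI72 (0.91) and LAG1 (0.91). These are descriptions over 10 groups that share strains and library sets.

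Most members were lower in med16Δ, the strain that has never had Med16 since its gene was replaced, and the transporter gene PHO84 and the uptake regulator SPL2 differed most. PHO84 levels were 718, 781 and 724 CPM in the wild type and 6.69, 12.4 and 66.1 in med16Δ. The groups lay far apart, but replicate 3 of med16Δ stood well above the other 2, and the log2 fold change of -4.81 (SE 0.39) became -6.34 without it. SPL2 counts were 45, 39 and 37 in the wild type and 1, 1 and 1 in med16Δ, a ratio of 44.7 in depth-scaled counts (95% interval 14.9 to 219.6, counting error only). SPL2 was thus at the edge of detection in every deletion library. PHO89 levels were 19.3, 14.2 and 17.9 CPM in the wild type and 7.75, 5.82 and 6.29 in med16Δ, and the groups did not overlap (log2 fold change -1.35 (SE 0.21)). PHO5 levels were 46.3, 50.8 and 48.9 and 10.6, 13.9 and 23.1 CPM (log2 fold change -1.66 (SE 0.16)). PHM6, a short gene with few counts, was at 9.40, 8.56 and 13.1 and 2.82, 2.28 and 3.93 CPM (log2 fold change -1.80 (SE 0.28)). These 3 genes lay lower in every deletion library than in any wild-type library. Among the VTC genes the order was VTC3, VTC1, VTC4, with log2 fold changes of -1.08 (SE 0.10), -0.61 (SE 0.10) and -0.41 (SE 0.06). PHO8 was at 230.0, 232 and 213 CPM in the wild type and 200.2, 168 and 173 in med16Δ (log2 fold change -0.32 (SE 0.07)), a small difference without overlap. PHO81, at 201, 214 and 208 and 225, 160.3 and 171 CPM, was the member whose groups overlapped (log2 fold change -0.15 (SE 0.12)). In 9 of 10 members the groups did not overlap and med16Δ was lower, beside 17.3% of all genes lying lower without overlap. The members were chosen with this contrast known, so nothing is read from this count. The median log2 fold change was -1.22 over the members and 0.01 over all genes. Spike-in factors were recovered for 4 of the 5 perturbation comparisons and fitted on the 6 libraries of each alone. With them the log2 fold changes of PHO8, VTC1 and VTC4 were -0.14, -0.42 and -0.23, smaller than with TMM. The share of higher genes among all calls went from 48.0% to 61.6%.

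When Med16 was instead depleted for 30 min, PHO89, PHM6, SPL2 and PHO5 fell without overlap between the groups with TMM scaling, PHO89 by most. With spike-in factors PHO89 alone of these was still called (adjusted p = 0.00938), against 0.155 for PHM6, 0.12 for SPL2 and 0.508 for PHO5, and the share of higher genes among all calls went from 43.2% to 89.4%. PHO89 levels were 128, 162 and 138 CPM with DMSO and 58.3, 73.7 and 76.6 with 3-IAA, without overlap, a log2 fold change of -1.04 (SE 0.12, adjusted p = 1.48e-07). PHM6 went from 21.3, 25.2 and 26.6 CPM to 10.2, 14.4 and 14.2, a log2 fold change of -0.92 (SE 0.18, adjusted p = 0.000477). SPL2 went from 48.4, 42.6 and 32.8 to 21.8, 24.0 and 20.3 CPM, a log2 fold change of -0.91 (SE 0.16, adjusted p = 0.000165). In each of these genes every 3-IAA library lay below every DMSO library. PHO5 fell from 103, 116 and 106 to 80.2, 71.6 and 74.9 CPM (log2 fold change -0.52 (SE 0.12, adjusted p = 0.0017)). PHO84 was at 918, 1251 and 952 CPM with DMSO and 682, 562 and 569 with 3-IAA, also without overlap, but its log2 fold change of -0.78 (SE 0.29) had an adjusted p of 0.0577. It was called in 3 of 14 alternatives, on the groups compared alone (adjusted p = 0.00343), with unstranded counts (0.000184) and without DMSO replicate 1 (0.0421), and in the others the adjusted p reached 0.345. VTC3 (303, 399 and 384 CPM against 326, 299.9 and 276) and VTC1 (255, 230.2 and 209.9 against 167, 225 and 191) were called lower by small margins, at -0.27 (SE 0.10, adjusted p = 0.0477) and -0.26 (SE 0.09, adjusted p = 0.0467), and their groups overlapped. Both calls were lost in 7 or more of 14 alternatives, among them spike-in factors, the groups compared alone and the replicate block, and when a library was left out: VTC3 without 3-IAA replicate 2 (adjusted p = 0.094) or 3 (0.178) or DMSO replicate 2 (0.24) or 3 (0.136), and VTC1 without 3-IAA replicate 1 (0.313) or 3 (0.106) or DMSO replicate 1 (0.199) or 2 (0.0946). VTC4 was at 404, 447 and 408 and 392, 385 and 353 CPM (log2 fold change -0.15 (SE 0.06, adjusted p = 0.0528)). PHO8 and PHO81 had log2 fold changes of 0.09 (SE 0.07, adjusted p = 0.407) and 0.03 (SE 0.11, adjusted p = 0.892), with 95% intervals of -0.05 to 0.22 and -0.19 to 0.25. In all, 6 of 10 members were called lower by edgeR, beside 11.2% of all genes called lower and 8.48% called higher, and 6, PHO84 and VTC4 among them, lay lower without overlap, beside 13.0% of all genes. The median was -0.39 over the members and 0.01 over all genes.

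**Figure D2:**
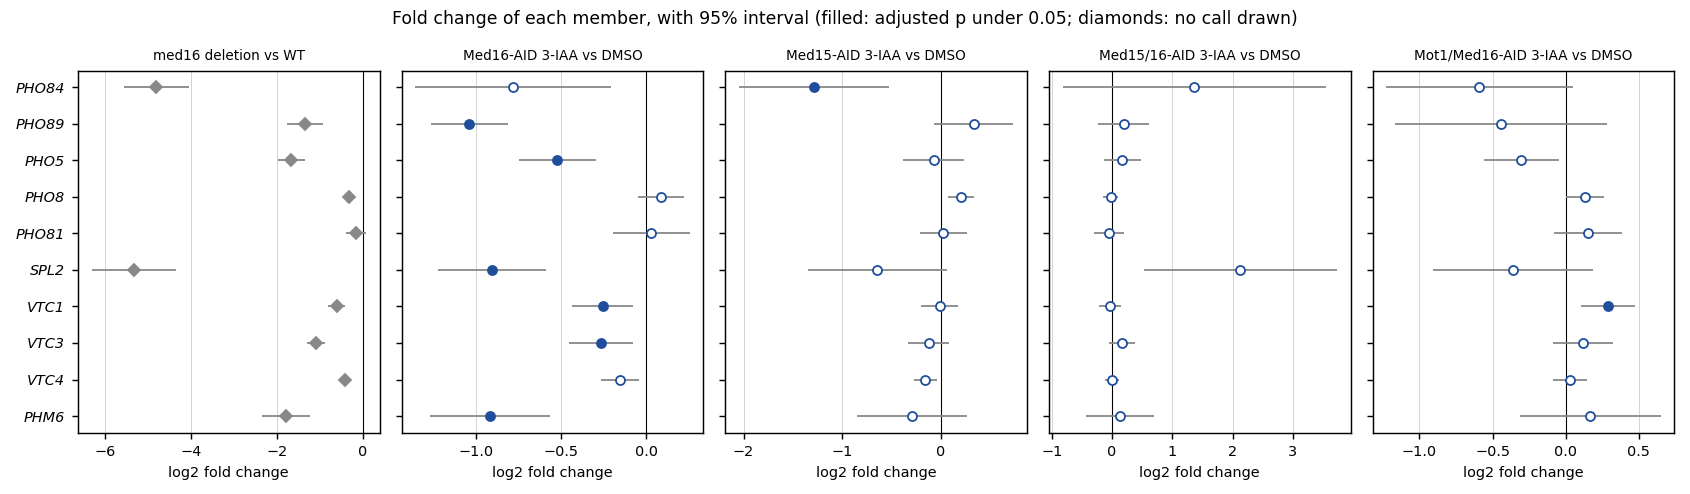
Log2 fold changes of the 10 genes in the 5 perturbation comparisons, with approximate 95% intervals worked out from the edgeR fold change and F statistic. Filled points have an adjusted p under 0.05, and the med16Δ panel carries grey diamonds with no call. In Med16-AID 6 genes were called lower, with PHO89 at -1.04, whereas in Med15/16-AID none was called and the intervals of PHO84 and SPL2 were wide.

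With Med15 depleted, PHO84 was the single member called, and the call was not stable to the libraries left out. PHO84 was at 35.2, 93.0 and 99.7 CPM with DMSO and 14.7, 33.2 and 45.7 with 3-IAA, a log2 fold change of -1.29 (SE 0.39, adjusted p = 0.0276). DMSO replicate 1 lay among the 3-IAA libraries, so the groups overlapped. The call was lost without 3-IAA replicate 1 (adjusted p = 0.196), 3-IAA replicate 2 (0.0746), DMSO replicate 2 (0.127) or DMSO replicate 3 (0.165), and with DESeq2 (0.146). This was 1 member called lower beside 7.95% of all genes. SPL2 was at 1.68, 4.04 and 4.99 and 2.35, 2.93 and 1.69 CPM (log2 fold change -0.65 (SE 0.36, adjusted p = 0.343)), with overlap. PHO89 levels were 7.34, 11.0 and 8.05 and 12.4, 10.5 and 10.5 CPM, a log2 fold change of 0.33 (SE 0.20, adjusted p = 0.425). PHO8 was higher in every 3-IAA library (232, 239 and 226 CPM) than in any DMSO library (198, 202 and 204), by 0.20 (SE 0.07, adjusted p = 0.0534). The other members had log2 fold changes of -0.29 (PHM6), -0.16 (VTC4), -0.12 (VTC3), -0.07 (PHO5), -0.01 (VTC1) and 0.02 (PHO81), with adjusted p-values of 0.0882 (VTC4) or more.

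With Med15 and Med16 depleted together no member was called, and PHO84 and SPL2 were near the limit of detection already with DMSO. PHO84 counts were 14, 3 and 8 with DMSO and 26, 20 and 26 with 3-IAA, or 3.06, 0.611 and 1.31 and 3.38, 3.95 and 5.74 CPM. All 3-IAA libraries lay above the DMSO libraries, though replicate 1 of each differed by little, and the log2 fold change was 1.37 (SE 1.11, adjusted p = 0.599), with a 95% interval of -0.82 to 3.55. SPL2 counts were 1, 0 and 2 with DMSO and 6, 3 and 7 with 3-IAA, a ratio of 4.80 in depth-scaled counts (95% interval 1.37 to 25.7, counting error only; adjusted p = 0.112). PHO5 was at 19.9, 19.7 and 20.8 and 24.8, 21.3 and 21.4 CPM, again without overlap, with a log2 fold change of 0.17 (SE 0.16, adjusted p = 0.668). For the remaining members the log2 fold changes were 0.20 (PHO89), 0.16 (VTC3), 0.13 (PHM6), 0.00 (VTC4), -0.02 (PHO8), -0.03 (VTC1) and -0.05 (PHO81). The count by edgeR was 0 of 10, beside 9.76% of all genes called in either direction; 1 member, SPL2, had an unadjusted p under 0.05, and DESeq2 also called 0. PHO84 was called higher in 2 of 13 alternatives, on these 6 libraries alone at 1.37 (adjusted p = 0.0227) and with spike-in factors, and in the others its adjusted p reached 0.826.

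With Mot1 and Med16 depleted together, VTC1 was the single member called. VTC1 rose from 137, 168 and 139 CPM to 201, 173 and 168, a log2 fold change of 0.29 (SE 0.10, adjusted p = 0.0162). This was 1 member called higher beside 18.3% of all genes, and the call was lost without DMSO replicate 1 (adjusted p = 0.0836), DMSO replicate 3 (0.0775) or 3-IAA replicate 1 (0.115) and with unstranded counts (0.0503). PHO84 levels were 182, 184 and 192 CPM with DMSO and 119, 124 and 127 with 3-IAA. These tight groups did not overlap, and the log2 fold change was -0.59 (SE 0.32), but with the spread shared across all 10 groups the adjusted p was 0.152. It was called in 2 of 13 alternatives, on these 6 libraries alone (6.64e-05) and with unstranded counts (0.0163), and in the others the adjusted p reached 0.435. PHO5 levels were 64.7, 51.5 and 58.1 and 43.8, 49.9 and 47.8 CPM, without overlap (log2 fold change -0.30 (SE 0.13, adjusted p = 0.0649)). PHO89 was scarce here, with 19, 16 and 9 counts with DMSO and 7, 12 and 13 with 3-IAA (log2 fold change -0.44 (SE 0.37, adjusted p = 0.361)). PHO8 was higher in every 3-IAA library (384, 356 and 372 CPM) than in any DMSO library (339, 350.0 and 327), by 0.13 (SE 0.07, adjusted p = 0.125). The groups of the remaining members overlapped, with log2 fold changes of -0.36 (SPL2), 0.17 (PHM6), 0.15 (PHO81), 0.12 (VTC3) and 0.03 (VTC4) and adjusted p-values of 0.325 (SPL2) or more. MOT1 RNA itself rose from a mean of 767 to 1196 CPM with 3-IAA. In the same library set it averaged 313 CPM in Med15-AID and 176 in Med15/16-AID with DMSO, and in the other set 323 in the wild type. With 3-IAA, MOT1 was lower in Med16-AID (-0.55), Med15-AID (-0.38) and Med15/16-AID (-0.33).

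The effects of 3-IAA in different strains were then compared with each other in the same fit. The effect on PHO89 was 1.37 higher in Med15-AID than in Med16-AID (SE 0.24, adjusted p = 0.000189), 1 member beside 0.959% of all genes. Between Mot1/Med16-AID and Med16-AID, 3 members had a higher effect with Mot1 also depleted, beside 13.8% of all genes: PHM6 by 1.09 (SE 0.30, adjusted p = 0.00804), VTC1 by 0.55 (SE 0.13, adjusted p = 0.0024) and VTC3 by 0.38 (SE 0.14, adjusted p = 0.0417). Leaving out any of 8 of the 12 libraries raised the adjusted p of the VTC3 difference above 0.05, to at most 0.167, and so did fitting the groups compared alone (0.0817) and the replicate block (0.0707). Between Mot1/Med16-AID and Med15/16-AID the effect on SPL2 was lower by -2.49 (SE 0.86, adjusted p = 0.0379), beside 10.2% of all genes with a lower effect, a value that rests on 3 counts in Med15/16-AID with DMSO. It was lost without Med15/16-AID DMSO replicate 1 (0.0695) or 2 (0.117), 3-IAA replicate 3 of that strain (0.13), or replicate 3 of Mot1/Med16-AID with DMSO (0.0715) or 3-IAA (0.0545). For Med15/16-AID against Med15-AID, 0 members were called by edgeR and 0 by DESeq2, beside 0.188% of all genes; 3 had an unadjusted p under 0.05. PHO84 did not pass in any of these differences, at 2.65 (SE 1.16, adjusted p = 1.00) for Med15/16-AID against Med15-AID, -1.96 (SE 1.15, adjusted p = 0.239) for Mot1/Med16-AID against Med15/16-AID, -0.50 (SE 0.49, adjusted p = 0.693) for Med15-AID against Med16-AID and 0.19 (SE 0.44, adjusted p = 0.776) for Mot1/Med16-AID against Med16-AID. The first of these had an unadjusted p of 0.0297. The comparison of Med15/16-AID with Med16-AID was not tested.

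The scaling of the libraries bears on the smaller values. The study added Schizosaccharomyces pombe cells to each culture as a spike-in, and the spike-in factors place the median gene at 0.19 in med16Δ, 0.21 in Med16-AID, 0.22 in Med15-AID and 0.12 in Med15/16-AID, where TMM had it at 0.01, 0.01, 0.00 and 0.01 (on the 6 libraries of each comparison alone). The supplementary table used to recover the factors was at hand in shortened form, with no rows for Mot1/Med16-AID, which was not analysed this way. Of the 6 members called in Med16-AID, PHO89 alone was called with these factors, at -0.85 (adjusted p = 0.00938). SPL2 was then at -0.71 (adjusted p = 0.12), PHM6 at -0.73 (adjusted p = 0.155) and PHO5 at -0.30 (adjusted p = 0.508). VTC1 and VTC3 were then close to 0, at -0.08 (adjusted p = 0.855) and -0.04 (adjusted p = 0.931), and VTC4, not called with TMM, changed sign to 0.06 (adjusted p = 0.889). PHO84 was at -0.55 (adjusted p = 0.257). In Med15-AID, PHO84 was called lower at -1.05 (adjusted p = 8.72e-15), PHO89 higher at 0.55 (adjusted p = 0.0284) and PHO8 higher at 0.42 (adjusted p = 0.00307). In Med15/16-AID, PHO84 was called higher at 1.48 (adjusted p = 0.00604) and VTC3 at 0.27 (adjusted p = 0.0207). With TMM on the same 6 libraries alone PHO84 was called higher too, and VTC3 was not. Over all genes, TMM on the groups compared alone gave 440 calls in Med16-AID and 1085 in Med15-AID. The fit of 30 libraries gave 1147 and 599. Among all genes called in the fit of 30 libraries with TMM, the share that was higher was 43.2% in Med16-AID, 22.5% in Med15-AID and 30.5% in Med15/16-AID. With the spike-in it was 89.4%, 86.1% and 76.9%.

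**Figure D3:**
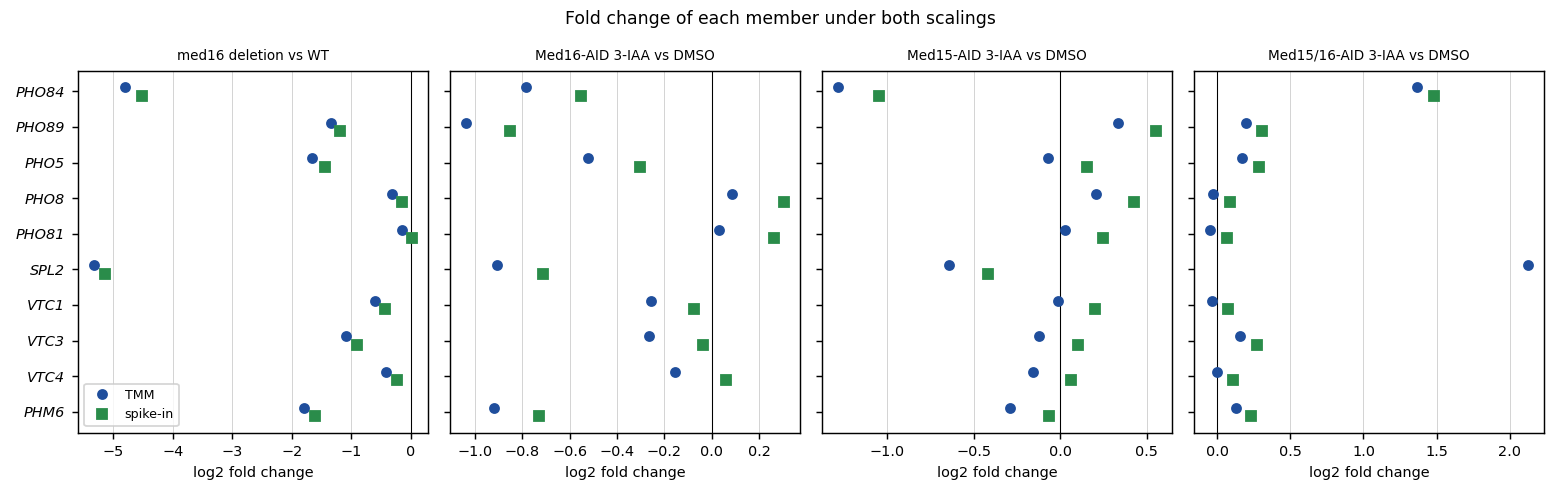
Log2 fold changes of the 10 genes with TMM scaling (circles) and with spike-in factors (squares) in the 4 comparisons that have them. All points are filled and do not show which genes were called. Spike-in values lie to the right of the TMM values where the median gene lies at 0.12 to 0.22 on the log2 scale, and SPL2 has no spike-in value in Med15/16-AID.

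The strains also differed with no auxin added. In Med16-AID with DMSO, 8 of 10 members were called higher than in the untreated wild type, beside 29.2% of all genes. The tag, OsTIR1, DMSO and possibly other parts of the strain background differ together between these groups and cannot be told apart. PHO89 rose most, from 19.3, 14.2 and 17.9 CPM to 128, 162 and 138, an 8.33-fold difference of means (log2 fold change 3.05 (SE 0.14, adjusted p = 8.94e-17)). SPL2 rose from 11.1, 10.4 and 8.49 to 48.4, 42.6 and 32.8 CPM (log2 fold change 2.05 (SE 0.19, adjusted p = 6.48e-10)). PHM6, PHO5, VTC1, VTC3 and VTC4 were higher by 1.22, 1.16, 0.78, 0.67 and 0.32, with adjusted p-values of 2.95e-05 or less. PHO8 was higher by 0.23 (SE 0.07, adjusted p = 0.00526), and this call was lost without DMSO replicate 2 (0.0531) and with the groups compared alone (0.0551). PHO84 lay above the wild type in every library, by 0.49 (SE 0.29, adjusted p = 0.155), and PHO81 was at -0.23 (SE 0.12, adjusted p = 0.0915) with overlap. After 30 min of 3-IAA the Med16-AID libraries still had 58.3, 73.7 and 76.6 CPM of PHO89 and 21.8, 24.0 and 20.3 CPM of SPL2, above all wild-type libraries in both genes.

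Among the degron strains of the larger library set, Med15/16-AID with DMSO differed from Med15-AID with DMSO most in PHO84 and SPL2. PHO84 was lower by a log2 fold change of -5.55 (SE 0.65, adjusted p = 4.78e-08), and SPL2 counts were 1, 0 and 2 against 8, 21 and 26, a ratio of 18.8 in depth-scaled counts (95% interval 6.11 to 94.0, counting error only). In all 5 members were called lower, beside 18.0% of all genes, the others being VTC3 (-0.56 (SE 0.11, adjusted p = 0.000154)), PHO81 (-0.42 (SE 0.12, adjusted p = 0.00768)) and VTC4 (-0.28 (SE 0.06, adjusted p = 0.000268)). PHO8 went the other way, at 306, 306 and 287 CPM against 198, 202 and 204 (0.57 (SE 0.07, adjusted p = 5.71e-08)), beside 18.7% of all genes called higher. In Mot1/Med16-AID with DMSO 4 members were called higher than in Med15-AID with DMSO, beside 18.8% of all genes. These were PHO5 (64.7, 51.5 and 58.1 CPM against 20.1, 23.6 and 25.5; 1.33 (SE 0.14, adjusted p = 6.08e-09)), PHO84 (1.28 (SE 0.33, adjusted p = 0.00322)), PHO8 (0.75 (SE 0.07, adjusted p = 2.28e-10)) and SPL2 (0.87 (SE 0.29, adjusted p = 0.0205)). The SPL2 call was lost without Mot1/Med16-AID replicate 3 (0.218) or Med15-AID replicate 1 (0.154), and the PHO84 call with DESeq2 (0.0583). PHO89 was lower, at 4.15, 3.75 and 1.86 CPM against 7.34, 11.0 and 8.05 (-1.45 (SE 0.27, adjusted p = 9.26e-05)), beside 16.5% of all genes called lower. Against Med15/16-AID with DMSO, 8 members were called higher in Mot1/Med16-AID with DMSO, beside 23.6% of all genes, led by PHO84 at 6.83 (SE 0.60, adjusted p = 2.1e-10), and PHO89 was again lower (-1.21 (SE 0.28, adjusted p = 0.000885)), beside 20.6% called lower. Of these 8, PHO8 lost its call without Med15/16-AID replicate 3 (0.123) or Mot1/Med16-AID replicate 1 (0.0702) or 2 (0.0979) and with the groups compared alone (0.0506), and PHM6 without Med15/16-AID replicate 2 (0.0761) or Mot1/Med16-AID replicate 1 (0.0972). These comparisons share DMSO groups and are not independent of each other.

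**Figure D4:**
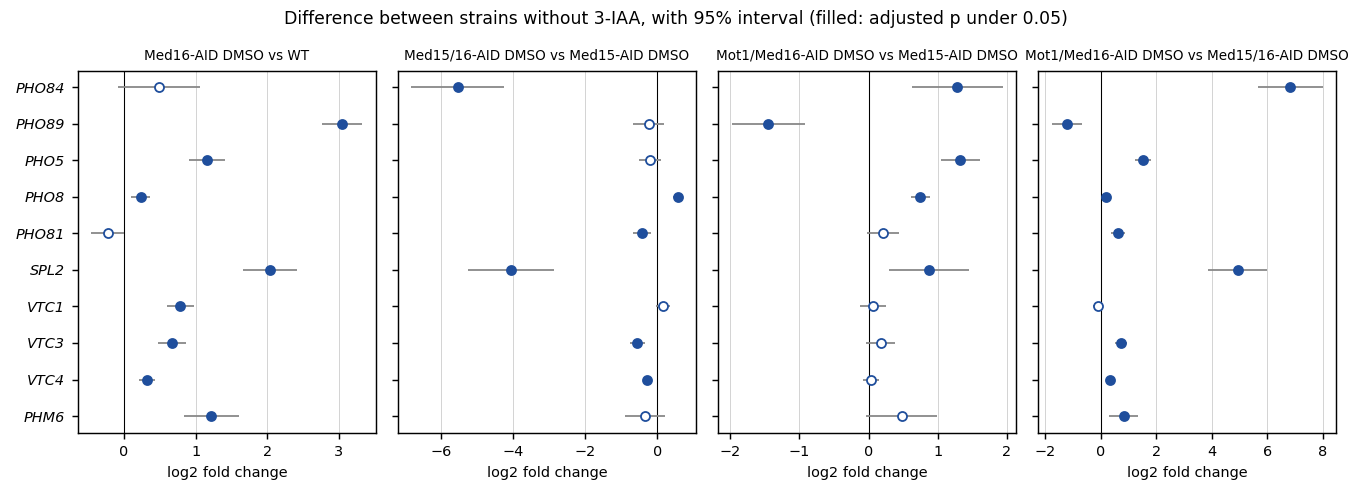
Log2 fold changes of the 10 genes between untreated or DMSO groups of different strains, with 95% intervals; filled points have an adjusted p under 0.05. PHO89 was 3.05 higher in Med16-AID with DMSO than in the wild type and at -1.45 in Mot1/Med16-AID against Med15-AID, and PHO84 was at -5.55 in Med15/16-AID against Med15-AID.

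Reads from the opposite strand were a readout the choice of members did not use. PHO84 lies at chrXIII:24037-25800 on the minus strand (R64), inside the annotated noncoding RNA YNCM0001W of the plus strand (chrXIII:23564-26578), and antisense transcription over PHO84 is known to accompany silencing of the gene. PHO84 antisense was at 31.4, 30.8 and 33.0 CPM in the wild type and 75.2, 86.1 and 72.9 in med16Δ, without overlap, a log2 fold change of 1.30 (SE 0.13, adjusted p = 4.94e-14). Antisense made up 3.79% to 4.36% of reads at PHO84 in the wild type and 52.5% to 91.8% in med16Δ. Such a share also depends on the sense reads, which the choice did use and whose mean went from 741 to 28.4 CPM. Antisense over PHO5, where such transcription is also known, went from 9.40, 13.1 and 10.6 to 15.5, 18.2 and 18.4 CPM, a log2 fold change of 0.65 (SE 0.19, adjusted p = 0.0159); this call was lost without wild-type replicate 1 (0.134) or 3 (0.0752) or med16Δ replicate 2 (0.068) or 3 (0.065). VTC3 antisense went from 4.95, 5.88 and 6.19 to 13.4, 12.7 and 9.44 CPM, by 1.07 (SE 0.23, adjusted p = 0.000313). These were the 3 of 8 members testable on this strand that were called higher, beside 3.49% of genes; PHO8 and SPL2 had too few antisense counts. In the other strains PHO84 antisense was within a narrower range than sense: 11.2, 9.23 and 10.3 CPM in Med16-AID with DMSO, 51.4, 47.7 and 42.0 in Med15-AID with DMSO, 44.2, 42.1 and 37.9 in Med15/16-AID with DMSO and 44.0, 47.1 and 48.2 in Mot1/Med16-AID with DMSO. Med16-AID with DMSO, the group highest in PHO84 sense, was the lowest in antisense, and antisense was 93.5% to 98.6% of PHO84 reads in Med15/16-AID with DMSO. A matching order across groups was not tested. With 3-IAA in Med16-AID, PHO84 antisense was at 18.3, 13.3 and 10.8 CPM (log2 fold change 0.47 (SE 0.17, adjusted p = 0.101)).

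**Figure D5:**
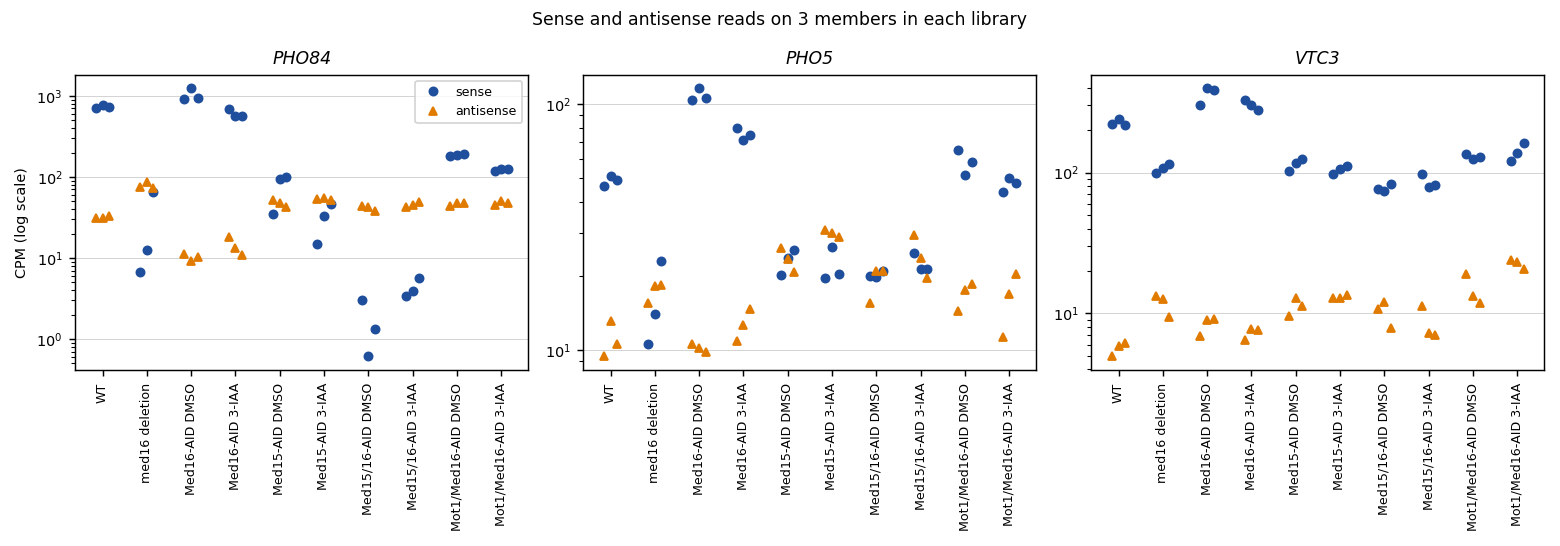
Sense and antisense levels (CPM, log axis) of PHO84, PHO5 and VTC3 in each library of the 10 groups. PHO84 sense ranged from 0.611 to 1251 CPM over the libraries, whereas its antisense stayed between 9.23 and 86.1 CPM and exceeded sense in all libraries of med16Δ, of Med15/16-AID with either treatment and of Med15-AID with 3-IAA.

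Antisense over the members was called higher or lower with 3-IAA in Mot1/Med16-AID, and whether the strains differed in this was not tested. By edgeR with TMM scaling 0 of 8 members were called in Med16-AID (beside 4.03% of genes in either direction), 0 in Med15-AID (2.49%) and 0 in Med15/16-AID (4.58%); in each, 1 member had an unadjusted p under 0.05, and DESeq2 called 0. With spike-in factors, not recovered for Mot1/Med16-AID, 2 members were called in Med15-AID and 1 in Med15/16-AID. In Mot1/Med16-AID, 3 members were called higher, beside 13.3% of genes, and the median antisense change of all genes was 0.26. VTC4 antisense went from 0.656, 3.04 and 2.48 to 3.47, 6.73 and 6.69 CPM, by 1.44 (SE 0.37, adjusted p = 0.0033). PHO81 antisense went from 2.62, 2.11 and 0.827 to 4.12, 3.58 and 5.02 CPM, by 1.19 (SE 0.36, adjusted p = 0.014), and VTC3 from 19.0, 13.3 and 11.8 to 24.1, 23.4 and 20.6, by 0.63 (SE 0.17, adjusted p = 0.00661). The PHO81 value rests on 4 to 12 counts per library with DMSO and 17 to 21 with 3-IAA. NAS6, on the opposite strand, ends 27 bases from PHO81, and reads running past its end cannot be told apart from PHO81 antisense. VTC1 antisense was the exception, lower at 5.42, 2.95 and 6.93 CPM than with DMSO (9.84, 9.13 and 7.44), by -0.80 (SE 0.25, adjusted p = 0.0197), beside 3.46% of genes called lower. VTC1 was also the member whose sense reads were called higher in this comparison. Sense reads of VTC3, PHO81 and VTC4, whose antisense was higher, were at 0.12, 0.15 and 0.03, none called. A link between the strands was not tested. Each of these calls was lost without at least 1 library: VTC4 without DMSO replicate 1 (0.0623), PHO81 without DMSO replicate 3 (0.157) or 3-IAA replicate 3 (0.0662), VTC3 without DMSO replicate 3 (0.0884), and VTC1 without DMSO replicate 1 (0.0908) or 2 (0.0604) or 3-IAA replicate 2 (0.22) and with DESeq2 (0.0508).

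Other genes of phosphate metabolism, 25 in 5 lists, were examined beside the members. These lists too were drawn up with earlier results of these data known. Their p-values and counts are therefore descriptions and not independent tests. In med16Δ, 7 were called lower and 1 higher, beside 12.4% and 11.5% of all genes. The lower genes included VTC2, a further VTC subunit (-0.63 (adjusted p = 6.94e-10)), the polyphosphatase gene PPN2 (-0.89 (adjusted p = 2.08e-10)), VTC5 (-0.84 (adjusted p = 1.27e-06)), the phosphatase gene PHM8 (-1.12 (adjusted p = 6.25e-06)) and the acid phosphatase genes PHO11 (-1.52 (adjusted p = 0.00739)) and PHO12 (-1.33 (adjusted p = 2.2e-05)); PHO86, which helps the Pho84 protein leave the endoplasmic reticulum, was at -0.19 (adjusted p = 0.0357). PHM7 was the gene called higher, at 1.35 (adjusted p = 4.84e-06). In Med16-AID 4 were lower, beside 11.2% of all genes: PHO11 (-0.87), PHM8 (-0.65), PPN2 (-0.43) and VTC2 (-0.30). PHM7 was again higher (0.87 (adjusted p = 7.92e-05)), beside 8.48%. In Med15-AID, PHM8 (-0.66 (adjusted p = 0.00281)) and PHO3 (-0.50 (adjusted p = 2.64e-06)) were lower, beside 7.95%, and in Med15/16-AID PHO3 was (-0.65 (adjusted p = 1.83e-08)), beside 6.78%. In Mot1/Med16-AID 7 were higher, beside 18.3% of all genes: GIT1 (0.76) and GDE1 (0.58), which serve the use of glycerophosphodiesters, PHO12 (0.61), PHM8 (0.48), PHO3 (0.42), PHO86 (0.34) and VIP1 (0.29). PHO85 (-0.58), PHO91 (-0.34) and PHO87 (-0.17) were lower there, beside 20.5%. PHO5, PHO3, PHO11 and PHO12 are close copies of each other, and reads that fit several of them were not counted for any, so their values are uncertain. PHO3, which lies 446 bases from PHO5, was at 0.14 (adjusted p = 0.183) in med16Δ. Among the regulators in med16Δ, PHO4 was at -0.19 (adjusted p = 0.368), PHO2 at -0.09 (adjusted p = 0.536), PHO80 at -0.07 (adjusted p = 0.645) and PHO85 at -0.14 (adjusted p = 0.33), and in Med16-AID PHO4 was at 0.31 (adjusted p = 0.165). CACGTG was found upstream of 11 of these 25 genes, against 10 of 10 members.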

How the data were processed

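Paired-end reads of 4tU-labelled RNA from 30 libraries were mapped by the authors with STAR 2.6.1a to sacCer3, and the authors deposited raw read counts per gene, unstranded and for each strand, which keep reads that map to 1 place only. The sense and antisense counts of 6692 genes were used here as deposited. One edgeR 4.0.16 quasi-likelihood fit (R 4.3.3, limma 3.58.1) of all 30 libraries, with TMM scaling, a filter on low counts (5838 genes kept for sense, 3497 for antisense) and a prior count of 0.125, gave the log2 fold changes, and the Benjamini-Hochberg adjustment ran over all genes of a comparison, with a threshold of 0.05. The study calls its replicates biological, but neither it nor the labels say what separated them. The p-values set a difference against the spread between libraries within groups, estimated over all 30 libraries and with information shared between genes. TMM was the main scaling because the spike-in factors, recovered from the study's own comparisons, cover 4 of 5 perturbations (the table used was shortened and holds no rows for Mot1/Med16-AID) and set no common scale across strains. Groups came from the sample labels. The members and lists were chosen with earlier results of these data known. The genes named were the 10 members, the pathway genes that had an adjusted p under 0.05 in at least 1 of the 5 perturbation comparisons, 4 regulators, the 5 genes most like PHO84 and the targeted genes. The statistics were tested on simulated data with 200 changed genes per comparison. Alternatives were other size factors, DESeq2 1.42.0, other filters, the groups compared alone, a replicate block, unstranded counts, spike-in factors (for antisense added after seeing the data) and leaving out each library. Motifs and sequences came from the RefSeq R64 genome, to which 6008 gene identifiers matched. Intervals on counts cover counting error only.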

Additional observations from a re-analysis of the deposited data

Results flagged for a closer look

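Effects of 3-IAA on single members that differed between strains by a test of the difference itself were the following, on the log2 scale. The effect on PHO89 in Med15-AID exceeded that in Med16-AID by 1.37 (adjusted p = 1.89e-04). The effects in Mot1/Med16-AID exceeded those in Med16-AID by 1.09 for PHM6 (adjusted p = 0.00804), 0.55 for VTC1 (0.0024) and 0.38 for VTC3 (0.0417). The effect on SPL2 in Mot1/Med16-AID less that in Med15/16-AID was -2.49 (adjusted p = 0.0379), with 3 counts in all in Med15/16-AID with DMSO.

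Members whose libraries all moved one way in Med15/16-AID and all the other way in Med16-AID were PHO84 (1.37 against -0.78), SPL2 (2.13 against -0.91, from 3 and 16 counts in Med15/16-AID) and PHO5 (0.17 against -0.52). For these the difference was not tested, and in Med15/16-AID no member passed the threshold.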

How the results depend on the processing

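No member call changed sign under any alternative run, while 26 of 130 sense values and 9 of 40 antisense values, none of them called, changed sign in at least 1. Counts of called members moved by over 1.5 times as follows. With spike-in factors there was 1 call in Med16-AID (6 with TMM), 3 in Med15-AID (1), 2 in Med15/16-AID (0), and for antisense 2 in Med15-AID (0) and 1 in Med15/16-AID (0). With median-of-ratios size factors there were 2 in Med15-AID. With only the groups compared there were 3 in Med15-AID, 1 in Med15/16-AID, 2 in Mot1/Med16-AID (1), 3 for the difference between Mot1/Med16-AID and Med15/16-AID effects (1) and 1 for antisense in Med15-AID. With at least 10 counts in every library, which tests fewer genes, there were 3 for Mot1/Med16-AID against Med15-AID with DMSO (5), 0 for the difference between Mot1/Med16-AID and Med15/16-AID effects and 2 for antisense in Mot1/Med16-AID (4). With unstranded counts there were 2 for the difference between Med15-AID and Med16-AID effects (1) and 3 for that between Mot1/Med16-AID and Med15/16-AID effects. The cause of these changes was not tested. With a library left out the counts ran from 4 to 7 in Med16-AID, 0 to 1 in Med15-AID, 0 to 2 in Mot1/Med16-AID, 0 to 2 for the difference between Mot1/Med16-AID and Med15/16-AID effects, and for antisense 2 to 3 in med16Δ, 0 to 1 in Med16-AID and 2 to 4 in Mot1/Med16-AID. The lists of other genes had 15 genes called in at least 1 perturbation and 14 to 16 under the alternatives.

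Counts over all genes moved too. With spike-in factors they were 555 against 1393 in med16Δ, 104 against 1147 in Med16-AID, 1778 against 599 in Med15-AID and 1590 against 570 in Med15/16-AID, and for antisense 164 against 301, 92 against 141, 309 against 87 and 413 against 160. The share of antisense calls that was higher went from 40.5% to 63.4%, 63.1% to 97.8%, 28.7% to 84.8% and 65.6% to 87.2%. With only the groups compared they were 440 in Med16-AID, 1085 in Med15-AID, 40 against 11 for the difference between Med15/16-AID and Med15-AID effects and 1092 against 1706 for that between Mot1/Med16-AID and Med16-AID effects, and for antisense 45 in Med16-AID and 169 in Med15-AID. DESeq2 called 76 antisense genes in Med15/16-AID and 376 against 587 in Mot1/Med16-AID, and the filter of 10 counts left 97 in Med15/16-AID.

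The correlation between deviations of same-numbered libraries ran from -0.597 to 0.416 over 15 pairs, and in no strain were all 3 over 0.1, so the numbers were not taken as pairs. In Med15-AID all 3 were positive (0.219, 0.128 and 0.0298) and each library was nearest its own number, a hint from the data and not the design; PHO84 there was lower with 3-IAA within each number, and with the replicate block it stayed called (adjusted p = 0.0226). With the replicate block, 4 members were called in Med16-AID, 1 in Med15-AID, 0 in Med15/16-AID and 1 in Mot1/Med16-AID. The all-gene count for the difference between Med15/16-AID and Med15-AID effects was then 7. Depth limits SPL2 in Med15/16-AID and med16Δ, with as few as 0 counts in a library, and PHO84 in Med15/16-AID, with as few as 3.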
